A study of Mus musculus with 20 samples.

Results

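The interaction of mechanical overload (MOV) and the miR-1 mimic was calculated for each gene as the log2 difference between MOV mimic and MOV control minus the log2 difference between sham mimic and sham control. All 20 of the 20 libraries of the series entered it, 5 per group. Male C57BL/6J mice of 5 months underwent sham or MOV surgery, and their plantaris muscles were taken at day 10. In MOV a portion of the synergist muscles (gastrocnemius and soleus) of both hindlimbs is cut away, which raises the load on the plantaris. At surgery the left plantaris received control lentivirus and the right plantaris lentivirus with the miR-1a-3p mimic, both of which carry a TurboGFP reporter, so that a virus was present in every group and the side of the leg and the virus cannot be told apart. Libraries with the same replicate number within a surgery were taken as the left and right leg of 1 mouse, which gave 5 leg pairs per surgery and 10 in all, and sham and MOV were different mice. Of 54532 genes in the count tables, 16166 had enough counts to be tested, and a library held between 12036360 and 23056525 counts. MOV mimic replicate 4 stood apart with the fewest counts and 15561 genes with counts, against 18768 to 22300 in the other libraries, and values without its mouse are given beside the main immune lists. Muscle fibre markers were abundant in all libraries, as the summed level of 6 of them was at least 64676 CPM (counts scaled to a common library size with TMM normalization). miR-1 itself was not analysed here. In these whole-muscle libraries more cells of a type and more RNA per cell cannot be told apart.

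miR-1 is a microRNA enriched in striated muscle that lowers target mRNAs by pairing with them, and its level is known to fall when a muscle is overloaded. MOV is known to induce hypertrophy, satellite cell activity, a shift towards slower and developmental sarcomere proteins, matrix remodelling and entry of immune cells. Immune cells and interferon-treated fibres present peptides on major histocompatibility complex (MHC) molecules. Class I molecules, built with B2m, carry peptides cut by the immunoproteasome and pumped by Tap1 and Tap2, and class II molecules, whose genes are switched on by Ciita, carry peptides taken up by macrophages, dendritic cells and B cells. Interferon-gamma acts through transcription factors such as Irf1 on many of these genes and on guanylate-binding proteins such as Gbp3.

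Antigen presentation and the interferon response were among the groups with positive interactions, and the promoters of 3 of their genes are shown, each as the 150 bases just before the start site from the RefSeq promoter table (GRCm38.p6, plus strand, chr3:142559894-142560043 for Gbp3, chr2:122147537-122147686 for B2m and chr17:34305717-34305866 for H2-Eb1). Capitals mark the core of the interferon-stimulated response element (ISRE, GAAA and GAAA with any 2 bases between them, or TTTC and TTTC likewise on the other strand) in Gbp3 and B2m, and the CCAAT box (CCAAT or ATTGG), a part of the promoter module known from class II genes, in H2-Eb1. In Gbp3, 2 matches overlap. The start of Gbp3 in the RefSeq gene annotation lies upstream of the start site in the promoter table. The last bases shown for Gbp3 therefore fall inside the gene by that annotation.
Gbp3: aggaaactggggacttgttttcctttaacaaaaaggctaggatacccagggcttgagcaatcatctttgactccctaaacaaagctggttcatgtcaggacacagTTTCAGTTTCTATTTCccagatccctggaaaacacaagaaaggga
B2m: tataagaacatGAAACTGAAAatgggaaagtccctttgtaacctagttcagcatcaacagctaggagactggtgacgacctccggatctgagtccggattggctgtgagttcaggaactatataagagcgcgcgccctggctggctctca
H2-Eb1: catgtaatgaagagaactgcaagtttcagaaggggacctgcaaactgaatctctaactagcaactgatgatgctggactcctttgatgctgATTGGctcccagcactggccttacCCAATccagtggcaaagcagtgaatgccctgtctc

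Both motifs were searched on both strands in windows from 250 bases before to 50 bases after each start. The ISRE core was present in 3.44% of 32851 promoters and the CCAAT box in 37.4%. Among the genes tested here, the ISRE core was found in 9 of 14 interferon-gamma effector genes that had a promoter in the table (among them Gbp2, Gbp3, Gbp5, Igtp and Irgm2), in 9 of 14 type I interferon-stimulated genes, in 4 of 14 class I and peptide loading genes (B2m, Erap1, H2-T22 and H2-T23) and in 1 of 4 immunoproteasome genes (Psme1). It was found in 0 of 6 class II genes, all 6 of which held the CCAAT box. The CCAAT box was also in 13 of 14 class I and peptide loading genes. These letters were counted as a description of the promoters, and binding was not measured.

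No gene had an interaction at an adjusted p under 0.05 in edgeR's quasi-likelihood test with the mouse as a block (0 of 16166, 0.0%), and the smallest adjusted p was 0.836. A positive interaction with an unadjusted p under 0.05 was found for 422 genes (2.61% of the genes tested) and a negative one for 343 (2.12%), together 765, and the median interaction of all genes was -0.03. In the 422 positive genes the median log2 fold change (log2FC) of mimic against control was 0.71 in MOV and -0.19 in sham, and in the 343 negative genes it was -0.48 in MOV and 0.17 in sham. Of the 422 positive genes 421 had a mimic effect above 0 in MOV and 65 in sham, and of the 343 negative genes 0 and 322. These values follow in part from the selection by the interaction itself. The 5 differences between legs in MOV lay wholly above the 5 in sham for 72 genes (0.445% of the genes tested) and wholly below them for 80 (0.495%). limma gave 0 genes with an intensity trend and 0 with voom, whereas DESeq2 with the block called 5 genes (0.0309%), namely Arhgdib (adjusted p = 0.0107), Snord91a (0.0137), H2-Ab1 (0.0369), Gbp3 (0.0436) and Selenow (0.0462). In edgeR without the block 0 genes passed and 426 had an unadjusted p under 0.05, and in DESeq2 without it the only call was Snord91a (0.00619%, adjusted p = 0.000752). Among the genes named for their own p, by a DESeq2 call or by the study, and Ciita and Krt18, the unadjusted p of edgeR without the block was above 0.05, and with the block under it, for Gbp3 (0.283), Pld4 (0.0505), Hba-a1 (0.206), Zbp1 (0.224), Serinc5 (0.0647), Errfi1 (0.065), B2m (0.102), Ciita (0.0927) and Krt18 (0.0541). Leaving out 1 mouse at a time gave 0 genes each time, while the number at an unadjusted p under 0.05 ran from 474 without sham replicate 2 to 1243 without MOV replicate 3. The results are therefore given as values of genes and gene lists, and none of the interactions named passed the edgeR threshold. Arhgdib, Gbp3, Pld4, H2-Ab1, Hba-a1, C1qc, Blvrb, Zbp1, H2-DMb1 and Slc7a6os were chosen by a small p and a positive interaction. The counts of mice and the overlap of leg differences given for them are therefore in part set by the choice.

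Genes of antigen presentation were higher on average in the mimic leg than in the control leg after MOV, whereas after sham the legs differed in both directions. Of the class II list, 8 of 9 genes tested had a positive interaction at an unadjusted p under 0.05 and 0 a negative one (H2-Aa, H2-Ab1, H2-Eb1, H2-DMa, H2-DMb1, H2-DMb2, Cd74 and Ciita, the exception being H2-Ob), against 2.61% of all genes. The median interaction of the list was 1.11, with a median mimic effect of 1.02 in MOV and -0.06 in sham. Averaged over the list, the mimic leg minus the control leg was 1.27, 1.55, 0.52, 1.45 and 0.60 in the MOV mice and 0.47, -0.12, 0.21, -0.61 and 0.19 in the sham mice. All 5 MOV mice lay above all 5 sham mice. In edgeR without the block 7 of the 8 genes stayed under 0.05, and without MOV replicate 4 there were 8 genes and the median was 0.95. For class I and peptide loading, 10 of 17 genes had a positive interaction at an unadjusted p under 0.05, 0 a negative one, and 17 of 17 a positive sign, with a median of 0.76. The MOV mice ran from 0.17 to 1.38 and the sham mice from -0.38 to 0.46, so that the surgeries overlapped, and without MOV replicate 4 there were 7 genes and the median was 0.50. Without the block 0 of the 10 genes stayed under an unadjusted p of 0.05 and 1 other gene passed it. Within the list the interaction was 1.05 for H2-T23, a non-classical class I heavy chain, 0.96 for Tap2 and 0.87 for Tap1, the subunits of the peptide pump, and 0.86 for Nlrc5, the class I transactivator. The general chaperones Calr and Pdia3 stood at 0.24 and 0.06. Of 4 immunoproteasome genes tested, Psmb8, Psmb10 and Psme1 had positive interactions at an unadjusted p under 0.05 (0.99, 0.72 and 0.81), and the interaction of Psme2 was 0.62. None of the 3 stayed under 0.05 without the block, and 1 gene of the list passed without MOV replicate 4.

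**Figure D1:**
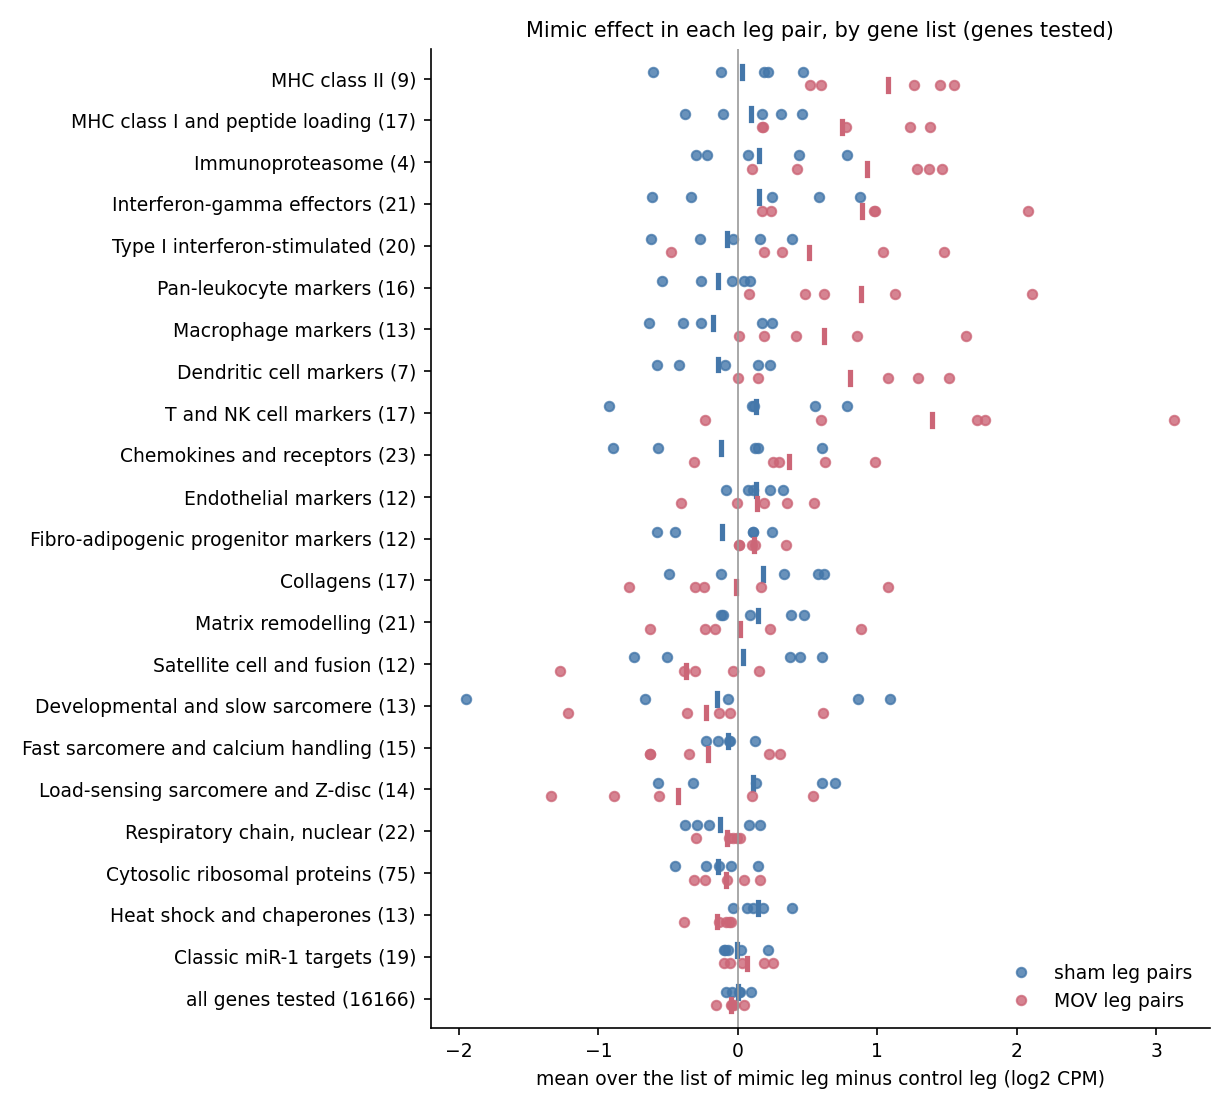
Mean over each gene list of the mimic leg minus the control leg (log2 CPM) for the 5 sham and the 5 MOV leg pairs, with the number of genes tested in parentheses; points are mice and vertical bars are means over 5 mice. The MOV pairs of the class II list lie between 0.52 and 1.55 and all sham pairs at or below 0.47. The heat shock and chaperone list does not overlap between surgeries either. All other lists shown overlap, among them the other immune lists and those of matrix, sarcomere and metabolic genes.

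H2-Ab1 encodes the beta chain of the class II molecule I-A (GRCm38, chr17:34263227-34269418). H2-Ab1 stood at 55.5, 84.5, 149, 140.1 and 118 CPM in sham control and 55.5, 84.5, 156, 80.5 and 137 CPM in sham mimic, by replicate 1 to 5. In MOV control it stood at 145, 162, 143, 109 and 60.0 CPM, and in MOV mimic at 309, 456, 173, 339 and 99.9 CPM. The mimic leg was above the control leg in 5 of 5 MOV mice, and the 5 differences did not overlap with those in sham. H2-Ab1 was chosen by its interaction, so that this order of its legs is in part set by the choice. Means were 275 ± 140.4 CPM in MOV mimic and 124 ± 40.7 CPM in MOV control (SD, n = 5 libraries each), and the interaction was 1.15 (SE 0.26, unadjusted p = 0.00047) by edgeR. H2-DMb1 encodes a chain of H2-M, which loads class II molecules with peptide (chr17:34153191-34160229). Its level in MOV mimic was 28.4, 35.5, 17.0, 46.8 and 8.50 CPM and in MOV control 10.3, 11.2, 8.74, 12.3 and 6.72 CPM. In sham mimic it was 3.73, 6.67, 16.6, 8.02 and 14.3 CPM and in sham control 5.21, 7.28, 11.7, 10.4 and 10.0 CPM. The MOV mimic legs were higher in 5 of 5 mice and the sham mimic legs in 2 of 5, with an interaction of 1.27 (SE 0.31, unadjusted p = 0.00105). Ciita, the class II transactivator, had a mimic effect of 0.99 in MOV and 0.02 in sham, with differences between legs of 1.21, 1.58, -0.14, 1.44 and 0.68 in the MOV mice. MOV mouse 3 was the one in which the mimic leg was not higher.

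B2m is the light chain shared by class I molecules (chr2:122147687-122153082) and was one of 7 genes that the study singled out in part from these libraries, so that its values are no independent evidence. B2m stood at 235, 197, 464, 294 and 354 CPM in sham control and 229.6, 309, 558, 251 and 503 CPM in sham mimic, by replicate 1 to 5. In MOV control it stood at 465, 360.4, 357, 416 and 342 CPM, and in MOV mimic at 810.5, 795, 468, 1167 and 478 CPM. It was higher in the mimic leg in 5 of 5 MOV mice and in 3 of 5 sham mice. The differences between legs were 0.80, 1.14, 0.39, 1.49 and 0.48 in MOV and -0.03, 0.65, 0.27, -0.23 and 0.51 in sham, which overlap. The interaction was 0.63 (SE 0.23, unadjusted p = 0.0161), and an exact permutation test of the 10 leg differences over all splits of the mice, two-sided, gave p = 0.0556, where the smallest p possible is 0.00794.

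Interferon-linked genes had mostly positive interactions, and their leg differences overlapped between surgeries. Of 21 interferon-gamma effectors tested, 6 had a positive interaction at an unadjusted p under 0.05 (Irf1, Gbp2, Gbp3, Gbp4, Igtp and Cd274), against 2.61% of all genes, 0 a negative one, and 20 a positive sign, with a median of 0.94. Averages over the list were 0.98, 2.08, 0.17, 0.98 and 0.24 in the MOV mice and -0.34, 0.25, 0.88, -0.61 and 0.58 in the sham mice, so that the lower MOV mice lay within the sham range, and without MOV replicate 2 the median was 0.47. Without the block 0 of the 6 genes stayed under an unadjusted p of 0.05, and without MOV replicate 4 there were 5. Gbp3, an interferon-induced GTPase (chr3:142560016-142573213), was the 1 gene that edgeR called for mimic against control within MOV (0.00619% of 16166). Gbp3 stood at 11.7, 10.2, 23.9, 14.2 and 50.3 CPM in sham control and 12.9, 10.1, 40.7, 12.3 and 64.8 CPM in sham mimic, by replicate 1 to 5. In MOV control it stood at 19.8, 24.7, 9.16, 60.5 and 8.08 CPM, and in MOV mimic at 57.1, 95.9, 18.5, 128 and 15.9 CPM. Gbp3 rose by a log2FC of 1.32 with the mimic in MOV (SE 0.16, edgeR adjusted p = 0.0124), whereas its log2FC in sham was 0.22 (SE 0.16). Mice differed widely in the level of Gbp3 in both legs. The interaction was 1.10 (SE 0.23, unadjusted p = 0.000237) with the mouse as a block, and the unadjusted p was 0.283 in edgeR without it. Cd274, which encodes the checkpoint ligand PD-L1, had an interaction of 1.16, and Irf1, a transcription factor induced by interferon-gamma, of 0.71. The receptor chains Ifngr1 and Ifngr2 stood at 0.31 and -0.06.

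Of 20 type I interferon-stimulated genes, 5 had a positive interaction at an unadjusted p under 0.05 (Rsad2, Ifih1, Zbp1, Bst2 and Xaf1) and 0 a negative one, against 2.61% and 2.12% of all genes, with a median of 0.62 (0.34 without MOV replicate 2). Averages over the list were 0.18, 1.48, -0.48, 1.04 and 0.32 in the MOV mice and -0.04, -0.62, 0.39, -0.27 and 0.16 in the sham mice, so that the mimic leg of MOV mouse 3 was the lower one and the surgeries overlapped. Without the block 0 of the 5 genes stayed under 0.05, and without MOV replicate 4 there were 2. Zbp1, a sensor of Z-form nucleic acids, was at 5.20, 18.7, 4.74, 16.5 and 0.429 CPM in MOV control and at 19.0, 55.7, 7.64, 71.5 and 3.74 CPM in MOV mimic. Its sham control libraries were at 1.79, 2.87, 4.95, 5.99 and 14.8 CPM and in sham mimic at 1.90, 2.26, 10.2, 4.29 and 19.7 CPM. Each MOV mouse had more Zbp1 in the mimic leg, and the interaction was 1.56 (SE 0.37, unadjusted p = 0.000827). The interactions of Isg15, Oas1a and Ifi44, induced by type I interferon, were -0.02, -0.24 and -0.47. The median interaction of 23 chemokines and receptors tested was 0.68 (0.45 without sham replicate 2 and 0.49 without MOV replicate 4).

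Markers shared by leukocytes had positive interactions as well. Of 16 markers shared by leukocytes, 12 had a positive interaction at an unadjusted p under 0.05, against 2.61% of all genes, 0 a negative one, and 16 a positive sign, with a median of 1.03. The MOV mice averaged 0.62, 1.13, 0.08, 2.11 and 0.48 over the list and the sham mice 0.09, -0.27, 0.04, -0.54 and -0.04. MOV mouse 3, at 0.08, lay within the sham range, whose top was 0.09. Without the block 2 of the 12 genes stayed under 0.05, and without MOV replicate 4, the highest mouse, there were 10 and the median was 0.78. The summed level of the 16 markers ran from 132 to 526 CPM in sham control, 140.4 to 432 in sham mimic, 198 to 489 in MOV control and 254 to 913 in MOV mimic, and all 16 had counts in every group. The part of a difference in leukocyte content in the class I, class II and interferon values was not tested. Arhgdib, a regulator of small GTPases abundant in leukocytes (chr6:136923655-136941899), had the smallest p of all genes. Arhgdib stood at 12.7, 15.7, 16.4, 23.4 and 20.3 CPM in sham control and 11.1, 10.7, 17.3, 17.9 and 16.5 CPM in sham mimic, by replicate 1 to 5. In MOV control it stood at 11.1, 16.2, 17.7, 11.5 and 7.37 CPM, and in MOV mimic at 26.2, 40.7, 24.3, 18.4 and 13.4 CPM. In MOV the mimic leg was higher in 5 of 5 mice and in sham in 1 of 5. This order is in part set by the choice of Arhgdib by its interaction. The differences were 1.24, 1.32, 0.45, 0.67 and 0.85 in MOV and -0.19, -0.55, 0.07, -0.39 and -0.30 in sham, without overlap. Its interaction of 1.19 (SE 0.21, unadjusted p = 5.17e-05) ran from 1.08 to 1.31 when 1 mouse was left out.

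Among 13 macrophage markers, 9 had a positive interaction at an unadjusted p under 0.05 (Adgre1, Csf1r, C1qa, C1qb, C1qc, Lyz2, Itgam, Fcgr1 and Aif1) and 0 a negative one, against 2.61% and 2.12% of all genes, with a median of 0.83 (0.49 and 7 genes without MOV replicate 4). Without the block 3 of the 9 genes stayed under 0.05. Averages over the list were 0.19, 0.41, 0.01, 1.64 and 0.85 in the MOV mice and 0.17, -0.64, 0.24, -0.39 and -0.26 in the sham mice, so that MOV mice 1 and 3 lay within the sham range. Their summed level ran from 272 to 955 CPM in MOV control and from 532 to 1035 CPM in MOV mimic, against 279 to 1109 and 294 to 997 CPM in sham control and sham mimic. C1qc, a chain of the complement protein C1q made by macrophages, stood at 57.2, 49.7, 61.3, 27.4 and 21.7 CPM in MOV control and 62.0, 104, 74.6, 65.7 and 41.7 CPM in MOV mimic. In sham control it stood at 25.5, 54.6, 62.8, 73.6 and 63.8 CPM and in sham mimic at 25.0, 30.4, 70.1, 50.3 and 49.5 CPM. The mimic leg was higher in 5 of 5 MOV mice and 1 of 5 sham mice, and the smallest MOV difference, 0.12, was below the largest sham difference, 0.16. The interaction was 1.06 (SE 0.25, unadjusted p = 0.000629), and the MOV control legs were on average lower than sham control (log2FC -0.37) and the MOV mimic legs higher than sham mimic (0.63). Mrc1, Cd163 and Mertk, which mark resident macrophages, had interactions of 0.55, 0.24 and 0.09. Pld4, an endosomal exonuclease of myeloid cells, had an interaction of 1.05 (SE 0.23, unadjusted p = 0.000454), with the mimic leg higher in 4 of 5 MOV mice and 0 of 5 sham mice. Blvrb, biliverdin reductase B, had one of 1.33 (SE 0.31, unadjusted p = 0.000691), with the same counts of mice.

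T and NK cell markers had the largest median of the 41 gene lists, 1.23, with 17 of 17 genes of positive sign and 3 at an unadjusted p under 0.05 (Cd4, Ctsw and Itgae), against 2.61% of all genes. Averages were 1.71, 1.77, 0.59, 3.13 and -0.23 in the MOV mice and 0.55, 0.12, 0.10, -0.92 and 0.78 in the sham mice, with overlap, and the median was 0.67 without sham replicate 4 and 0.80, with 1 gene under 0.05, without MOV replicate 4. Of the 3 genes, 2 stayed under 0.05 without the block. Levels were low, as the 18 markers summed to 11.4 to 51.7 CPM in MOV control and 28.1 to 161 CPM in MOV mimic, and to at most 40.6 CPM in sham. Cd4 had an interaction of 1.67 and Ctsw, a protease of cytotoxic cells, of 2.67 with between 0 and 229 counts per library. Of 7 dendritic cell markers, 2 reached an unadjusted p under 0.05 (Clec9a, 1.55, and Flt3, 2.19) and 7 were positive, with a median of 0.86 (1.30 without MOV replicate 5 and 0.71, with 2 genes under 0.05, without MOV replicate 4). B cell markers (4 tested, median 0.32, from 0.16 without MOV replicate 2 to 0.85 without MOV replicate 4) and neutrophil markers (4 tested, median -0.05, from -0.88 without sham replicate 2 to 1.06 without MOV replicate 1) had 0 genes at an unadjusted p under 0.05. Of the neutrophil list, Ly6g, Retnlg and Cxcr2 were too low to be tested.

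Of 3 erythrocyte markers tested, Hba-a1 and Alas2 had a positive interaction at an unadjusted p under 0.05, against 2.61% of all genes, and Hba-a2 stood at 0.48. The median interaction of the list was 0.86. Leg differences averaged over it were 0.02, 0.20, 0.30, 1.37 and 0.94 in the MOV mice. In the sham mice they were -0.51, -0.58, -0.19, -0.20 and -0.40, without overlap between surgeries. Alas2 alone stayed under 0.05 without the block. Hba-a1, an alpha globin gene, was at 78.8, 64.9, 28.9, 42.6 and 56.5 CPM in sham control and 83.5, 51.0, 22.97, 41.4 and 34.4 CPM in sham mimic. In MOV control it was at 9.75, 11.5, 46.3, 18.7 and 23.6 CPM and in MOV mimic at 16.3, 13.7, 56.5, 28.5 and 49.6 CPM. The mimic leg was higher in 5 of 5 MOV mice and 1 of 5 sham mice, without overlap of the differences, and the interaction was 0.86 (SE 0.20, unadjusted p = 0.000557). Hba-a1 and Hba-a2 are near-identical copies, so that their separate values are uncertain, as are Hspa1a and Hspa1b, and the same holds in part for the H2-Q, H2-K1 and H2-D1, Gbp and Ly6c genes. Alas2, the erythroid enzyme of heme synthesis, had an interaction of 1.75 at 2.33 CPM. The summed level of the 4 erythrocyte markers with counts was 12.2 to 54.0 CPM in MOV control and 16.1 to 65.4 CPM in MOV mimic, against 32.7 to 92.9 and 26.3 to 91.2 CPM in sham control and sham mimic, and the part of blood left in the muscle in the leukocyte and immune values was not tested. Endothelial markers had 0 of 12 genes at an unadjusted p under 0.05 and a median of 0.01. Of 12 fibro-adipogenic progenitor markers 1 had a positive interaction at an unadjusted p under 0.05, against 2.61% of all genes, though not without the block (Ly6a, 0.87, an interferon-responsive surface protein). The median of these markers was 0.12 (from 0.04 without sham replicate 5 to 0.28 without MOV replicate 1). Adipocyte, tendon and neuromuscular junction lists had 0 genes at this threshold among 8, 7 and 11, with medians of 0.49, 0.26 and -0.06. The tendon median went from -0.09 without MOV replicate 5 to 0.66 without MOV replicate 3, and the adipocyte median from 0.25 without MOV replicate 1 to 0.77 without sham replicate 4. That of the neuromuscular junction went from -0.14 without MOV replicate 1 to 0.16 without MOV replicate 4, where 2 of its genes had a positive interaction at an unadjusted p under 0.05.

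**Figure D2:**
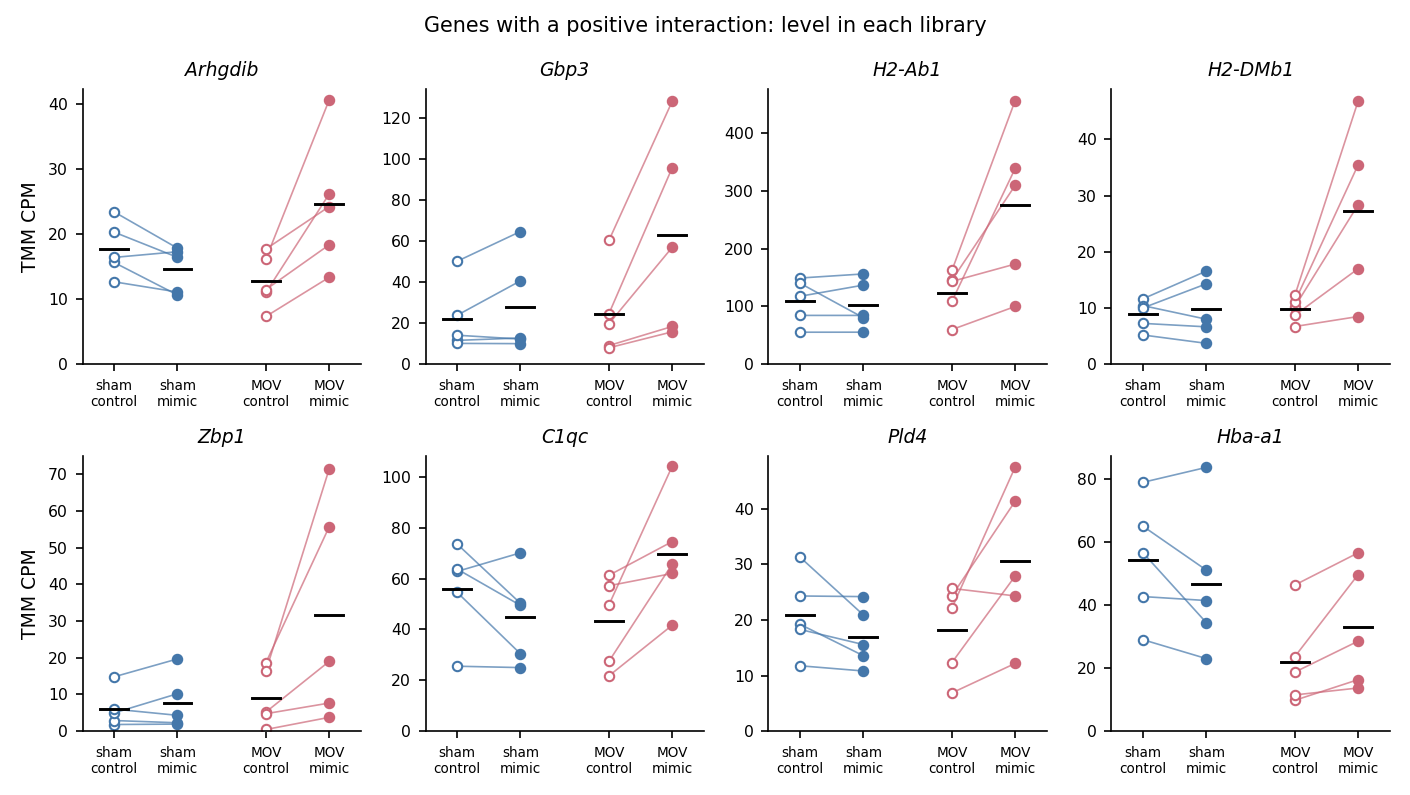
Level of 8 genes with small unadjusted p and a positive interaction in each of the 20 libraries (CPM after TMM normalization, linear axis from 0). Lines join the control leg (open) and the mimic leg (filled) of a mouse and black bars are means of 5 libraries, and for Arhgdib, Gbp3, H2-Ab1 and Hba-a1 each MOV line climbs more than any sham line does on the log2 scale.

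Whether the mimic enlarged or dampened the changes of overload was described on genes that differed between MOV and sham over both legs. Since a gene that is high in 1 leg only can pass on the sum of both, these lists are not independent of the difference between legs. Counts summed over the legs of each mouse gave 25 genes at an adjusted p under 0.05 (0.155%), of which 13 had an absolute log2FC of at least 1. Of these 13, Cntn2 was higher with overload, at 0.847 CPM, and its interaction was -1.74 (-2.77 without sham replicate 4, -0.99 without sham replicate 5 and -0.99 without MOV replicate 1). The 12 lower genes, among them the actin-severing Gsn, the creatine kinase Ckmt2 and the fatty acid transporter Cd36, had a median interaction of 0.21, and 0 of the 12 reached an unadjusted p under 0.05 for the interaction. That median was 0.34 without sham replicate 3, 0.08 without sham replicate 2, 0.07 without sham replicate 5 and 0.02 without MOV replicate 5. Since these lists were short, a longer one was added after the values were seen, with an unadjusted p under 0.01 and an absolute log2FC of at least 1. It held 233 higher genes (1.44%) and 125 lower genes (0.773%). The 233 higher genes had a median overload log2FC of 1.43 in control legs and 1.64 in mimic legs and a median interaction of 0.09, against -0.03 for all genes. Of them 9 (3.86%) had a positive and 12 (5.15%) a negative interaction at an unadjusted p under 0.05, against 2.61% and 2.12% of all genes. The 125 lower genes had medians of -1.49 and -1.15 and a median interaction of 0.28, with 91 of 125 of positive sign. Of these, 3 (2.4%) had a positive interaction at an unadjusted p under 0.05, a share near the 2.61% of all genes, and 0 a negative one. The 3 were Nos1, Klf4 and a gene without a symbol, named after their values were seen. The comparisons of MOV with sham under each virus called 36 genes in control legs (0.223%) and 3 in mimic legs (0.0186%), a difference in counts that was not itself tested.

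The overload-higher genes with an unadjusted interaction p under 0.05, a symbol and at least 5 CPM were then ranked by their interaction. Since they were chosen by the overload change over both legs and by the interaction, the difference between their legs follows from the choice, and their values are a description. In edgeR without the block the unadjusted p was 0.0782 for Ly6c2, 0.0927 for Ciita, 0.0546 for H2-Q4, 0.0541 for Krt18 and 0.0825 for Rab15. Those with a positive interaction were Ly6c2, a surface protein of monocytes (overload log2FC 0.86 in control and 2.58 in mimic legs), Ciita (0.73 and 1.81) and H2-Q4, a class I gene (0.46 and 1.45). The 5 with the most negative interaction were Krt18, Fam171b, Adamts20, Rab15 and Cpne2, with overload log2FC between 1.81 and 4.25 in control legs and between 0.40 and 1.37 in mimic legs. Krt18, a type I keratin of simple epithelia that is also found in muscle, was at 12.1, 5.18, 10.9, 91.9 and 13.1 CPM in MOV control and 4.73, 0.516, 4.01, 20.2 and 0.127 CPM in MOV mimic. Krt18 was at 0.0778, 1.65, 2.39, 2.04 and 0.635 CPM in sham control and in sham mimic at 0.609, 7.77, 1.13, 0.694 and 1.07 CPM. The control leg was above the mimic leg in 5 of 5 MOV mice, and its interaction was -2.78 (SE 0.88, unadjusted p = 0.00651). MOV mouse 4 had the highest level in either leg. Adamts20, a secreted metalloprotease, had leg differences of -0.90, -1.13, -0.08, -1.01 and -3.48 in MOV and 1.32, 1.58, -0.59, -0.57 and 0.73 in sham, which overlap. Cpne2, a calcium-dependent membrane-binding copine, and Rab15, a small GTPase of endosomes, had their lowest leg difference in MOV mouse 5, at -2.73 and -4.04. In the sham mice Rab15 ran from -1.19 to 2.17, so that its surgeries overlapped.

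**Figure D3:**
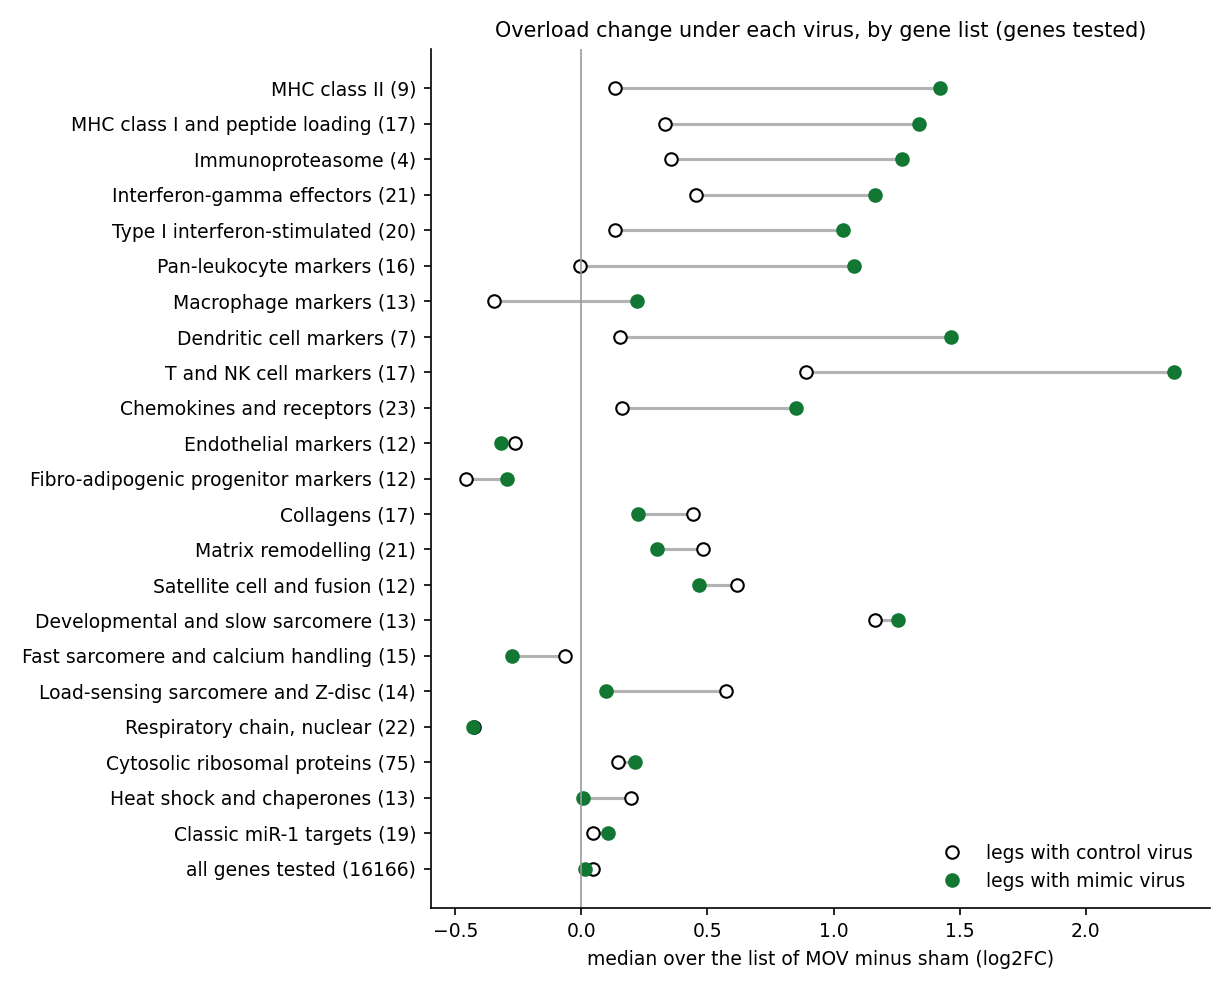
Median over each gene list of MOV minus sham (log2FC) in legs with control virus (open) and with mimic virus (filled), with the number of genes tested in parentheses. The class II list goes from 0.13 to 1.42 and the load-sensing list from 0.57 to 0.10, while developmental and slow sarcomere genes stand at 1.17 and 1.26.

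Lists of the muscle fibre had medians of both signs, and among them MOV and sham mice stood apart without overlap for the heat shock list alone. The load-sensing sarcomere and Z-disc list, whose products sit at the Z-disc and costamere and are known to be induced by stretch, had a median overload log2FC of 0.57 in control legs and 0.10 in mimic legs. Its median interaction was -0.60, 12 of 14 genes were negative, and 0 of 14 reached an unadjusted p under 0.05. Averages over the list were 0.10, -0.89, 0.54, -0.57 and -1.34 in the MOV mice and 0.13, 0.70, -0.57, -0.32 and 0.60 in the sham mice, which overlap widely. Without sham replicate 2 the median was -0.38, and without MOV replicate 5 it was -0.31. Interactions were -1.32 for Ankrd1, a titin-binding ankyrin repeat protein, -0.70 for Csrp3, the muscle LIM protein, -0.75 for Flnc, filamin C, and -0.75 for Xirp2. The heat shock and chaperone list had 2 of 13 genes with a negative interaction at an unadjusted p under 0.05, the inducible Hspa1a (-0.94) and its near-identical copy Hspa1b, against 2.12% of all genes, and 0 positive. Neither stayed under 0.05 without the block. The averages of the list were -0.06, -0.05, -0.09, -0.39 and -0.14 in MOV and -0.04, 0.39, 0.11, 0.07 and 0.18 in sham, without overlap, and its median interaction was -0.17 (-0.11 without MOV replicate 1, -0.26 without MOV replicate 2 and -0.04 without MOV replicate 4). Hspb1, a small heat shock protein, stood at -0.83 and Cryab at -0.01.

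Of 12 satellite cell and fusion genes, 2 had a negative interaction at an unadjusted p under 0.05, Megf10 (-1.31), a receptor of satellite cells, and Ncam1 (-0.80), an adhesion molecule of satellite cells and denervated fibres, and 0 a positive one, against 2.12% and 2.61% of all genes. Neither stayed under 0.05 without the block. The median was -0.41, and with limma voom it was 0.018, so that its direction depended on the method. Leaving out 1 mouse gave medians as small as -0.08 (without sham replicate 2). Pax7, the satellite cell transcription factor, stood at -0.60, Myod1 and Myog at 0.01 and -0.05. Developmental and slow sarcomere genes had similar median overload log2FC in control (1.17) and mimic legs (1.26), with 1 of 13 genes at the threshold, Myl3, the slow essential light chain (1.06), and a median of -0.05, with no stable sign, as it ran from -0.49 without sham replicate 3 to 0.33 without sham replicate 5 and was up to 0.35 under other alternatives. The embryonic myosin Myh3 stood at -1.58 and the slow myosin Myh7 at 0.61. Of 15 fast sarcomere and calcium handling genes 0 reached the threshold, with -1.24 for Myh1 (unadjusted p = 0.0592) and 0.57 for Myh4, the fast IIX and IIB myosins. Of 17 collagens 14 were negative with a median of -0.22 (from -0.45 without sham replicate 3 to -0.02 without MOV replicate 1) and 0 reached the threshold, and of 21 matrix remodelling genes 1 had a negative interaction at an unadjusted p under 0.05 with the block and 0 without it, the protease Adamts1 (-0.66), with a median of -0.15 (from -0.37 without MOV replicate 5 to -0.04 without MOV replicate 1).

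The 10 negative genes with the smallest p and at least 5 CPM were chosen by the interaction, so that the order of their legs is in part set by the choice. Of them, 9 were lower in the mimic leg in 5 of 5 MOV mice, and Slc39a10, a zinc importer, in 4 of 5. Acsl3, a long-chain acyl-CoA synthetase (chr1:78657825-78707743), was at 30.1, 25.0, 22.4, 37.9 and 33.0 CPM in MOV control and 16.5, 18.3, 15.5, 18.5 and 25.6 CPM in MOV mimic. Sham control libraries held 11.8, 18.4, 19.2, 23.1 and 26.1 CPM and sham mimic libraries 13.8, 22.2, 21.6, 24.6 and 24.5 CPM. The mimic leg was lower in 5 of 5 MOV mice and higher in 4 of 5 sham mice, without overlap of the differences. Its interaction was -0.78 (SE 0.18, unadjusted p = 0.000499), and MOV differed from sham by 0.59 in control legs and -0.18 in mimic legs. Serinc5, a multipass membrane protein, was at 37.2, 35.3, 30.6, 38.5 and 23.6 CPM in MOV control and 21.8, 18.7, 27.3, 16.5 and 14.6 CPM in MOV mimic. Its sham values were 3.42, 14.7, 26.2, 18.8 and 13.7 CPM in control and 7.69, 21.5, 24.4, 19.0 and 16.2 CPM in mimic legs, with no overlap of leg differences between surgeries. The interaction of Serinc5 was -1.08 (SE 0.25, unadjusted p = 0.000579), and its overload log2FC was 1.10 in control and 0.15 in mimic legs. Tspan13, a tetraspanin, had leg differences of -0.41, -0.51, -0.60, -0.53 and -0.73 in MOV and 0.10, 0.30, 0.26, 0.03 and -0.23 in sham, and an interaction of -0.65 (SE 0.15, unadjusted p = 0.000492). Errfi1, a feedback inhibitor of the EGF receptor, had an interaction of -0.69, and the legs of MOV mouse 3 differed by -0.03.

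Mapk8, the stress kinase JNK1, was at 39.5, 43.9, 39.6, 37.4 and 43.1 CPM in MOV control and at 28.9, 32.5, 30.7, 32.6 and 32.8 CPM in MOV mimic. It was at 37.7, 46.2, 32.9, 32.0 and 38.7 CPM in sham control and at 43.0, 43.0, 43.5, 39.6 and 38.8 CPM in sham mimic. Every MOV mimic library was below every MOV control library, and the interaction was -0.53 (SE 0.15, unadjusted p = 0.00253). Rsrc1, a protein linked to splicing, was lower in the mimic leg in 5 of 5 MOV mice and higher in 5 of 5 sham mice, with differences of -0.69, -0.03, -0.43, -1.08 and -0.08 and 0.10, 0.47, 0.40, 0.19 and 0.47 and an interaction of -0.78. Lrba, which takes part in vesicle traffic, and Alpk2, an alpha-kinase, had interactions of -0.56 and -0.68. On the positive side, Slc7a6os was at 20.5, 19.8, 21.8, 22.1 and 17.1 CPM in MOV mimic and 15.0, 15.6, 15.8, 15.6 and 10.9 CPM in MOV control. In sham mimic it was at 11.1, 8.87, 12.2, 10.9 and 10.4 CPM and in sham control at 13.7, 15.6, 12.8, 15.0 and 10.2 CPM. It rose with overload in mimic legs by a log2FC of 0.92 (edgeR adjusted p = 0.0189), while the log2FC in control legs was 0.12, and the interaction was 0.80 (SE 0.20, unadjusted p = 0.00116).

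**Figure D4:**
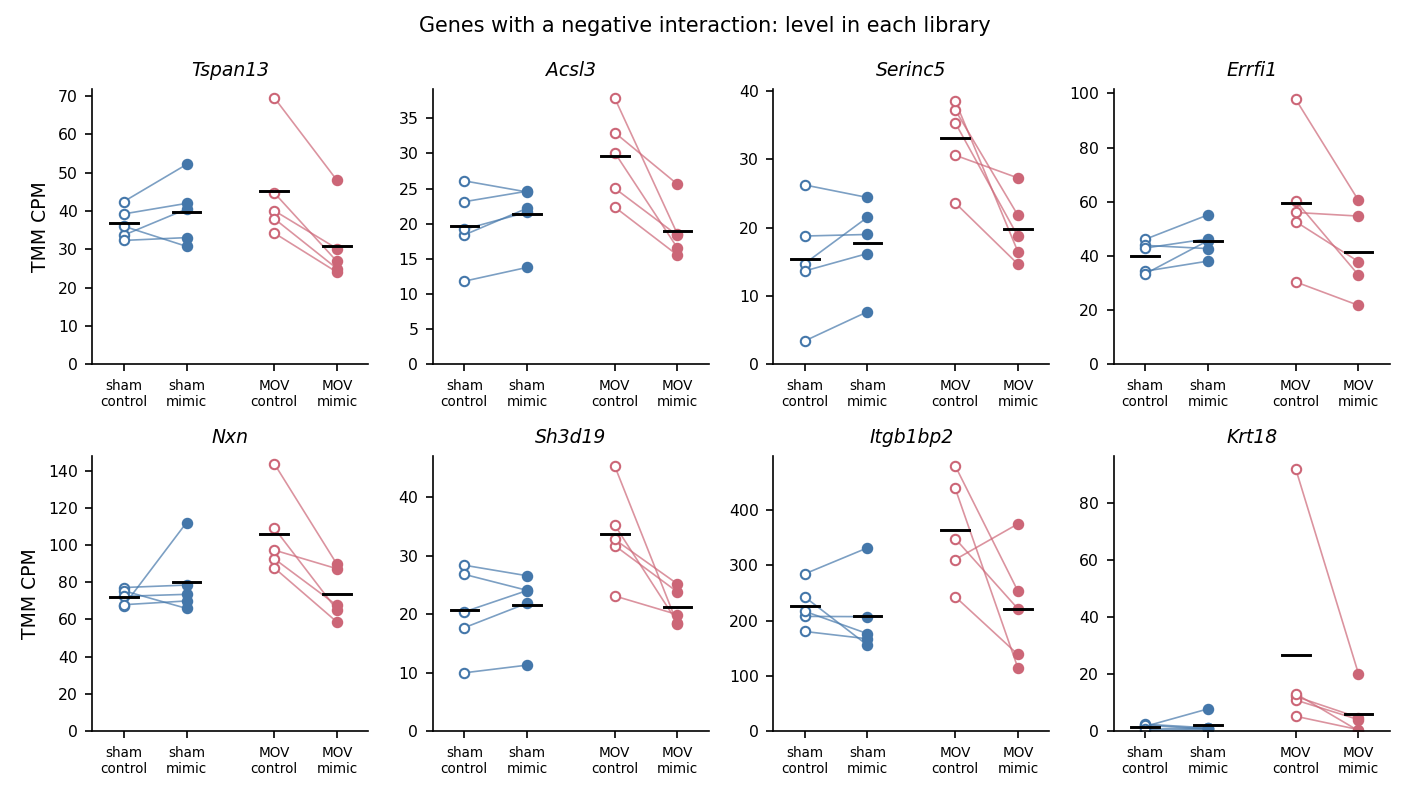
Level of 8 genes with a negative interaction in each of the 20 libraries (CPM after TMM normalization, linear axis from 0). Lines join the control leg (open) and the mimic leg (filled) of a mouse and black bars are means of 5 libraries, and the mimic leg is lower in 5 of 5 MOV mice for every gene shown except Itgb1bp2, where it is lower in 4 of 5.

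The study singled out 7 genes (Itm2a, Itgb1bp2, Nxn, Ypel2, Acsl3, Sh3d19 and B2m). It reported them as differentially expressed in these libraries and as targets of miR-1 in a separate binding experiment (eCLIP-seq). Their direction here is therefore not independent evidence. From qPCR the study proposes an effect of miR-1 on Itm2a, and for Itgb1bp2 it found no statistical difference. Of the 7 genes, 4 had a negative interaction at an unadjusted p under 0.05 (Acsl3, Nxn, Ypel2 and Sh3d19) and 1 a positive one (B2m), against 2.12% and 2.61% of all genes. Sh3d19, an SH3 domain adaptor, was at 35.2, 31.7, 32.8, 45.3 and 23.1 CPM in MOV control and 18.6, 23.8, 25.2, 18.3 and 19.9 CPM in MOV mimic. In the sham control legs Sh3d19 was at 9.96, 17.7, 28.4, 26.8 and 20.4 CPM and in sham mimic at 11.3, 21.9, 26.6, 24.1 and 24.0 CPM. Exact permutation of the 10 leg differences, two-sided, gave p = 0.00794 for Sh3d19 and for Acsl3, the smallest p possible, and p = 0.0159 for Nxn and Ypel2, in 7 genes tested in this way. Nxn, a thioredoxin-like redox protein, had leg differences of -0.45, -0.58, -0.16, -0.68 and -0.74 in MOV and 0.02, 0.73, -0.19, 0.02 and 0.04 in sham, and an interaction of -0.65 (SE 0.18, unadjusted p = 0.00288). Ypel2 was between 39.1 and 42.0 CPM in MOV control and between 24.3 and 32.5 CPM in MOV mimic. Its overload log2FC was 0.62 in control legs and 0.05 in mimic legs.

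Itgb1bp2, the integrin-binding protein melusin, was at 348, 243, 310.3, 479.8 and 439 CPM in MOV control and 221, 139, 375, 253 and 114 CPM in MOV mimic. In sham control it was at 207, 284, 243, 217 and 180.2 CPM and in sham mimic at 207, 331, 155, 176 and 167 CPM. Its mimic leg was lower in 4 of 5 MOV mice and in 4 of 5 sham mice, and the interaction was -0.64 (SE 0.31, unadjusted p = 0.0548) with an exact permutation p of 0.127, and -0.36 without MOV replicate 5. Itm2a, a membrane protein expressed in developing muscle, was at 427, 427, 459.7, 263 and 276 CPM in MOV control and 226, 208, 425, 195 and 169.8 CPM in MOV mimic. The sham control legs had 157, 474, 427, 442 and 331 CPM and the sham mimic legs 181, 446, 288, 323 and 256 CPM. The mimic leg of Itm2a was lower in 5 of 5 MOV mice and also in 4 of 5 sham mice, so that the log2FC was -0.64 in MOV and -0.26 in sham. The interaction of Itm2a was -0.38 (SE 0.20, unadjusted p = 0.0783) with an exact permutation p of 0.111.

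Genes known as targets of miR-1 had interactions of both signs. Of 19 tested (among them Hdac4, Igf1, Ccnd1, Gja1, Twf1 and Rheb) 0 had an interaction at an unadjusted p under 0.05 in either direction, 9 were positive and 10 negative, and the median was -0.01, with 0.05 for the mimic in MOV and 0.0005 in sham. Hdac4, a repressor of muscle genes, stood at -0.27 and Igf1 at -0.08. In the IGF and myostatin list 0 of 21 genes reached the threshold. In the atrophy list 1 of 11 did, Foxo1 (-0.46), against 2.12% of all genes with a negative interaction. Lists of metabolism and protein synthesis had medians between -0.08 for ribosome biogenesis (-0.15 without MOV replicate 3 and -0.03 without MOV replicate 4) and 0.13 for glycolysis and glycogen (0.07 without MOV replicate 5). Of 75 cytosolic ribosomal protein genes 0 reached the threshold. Of 22 nuclear genes of the respiratory chain 1 did, Cox7a1 (0.52), against 2.61% of all genes with a positive interaction. Cell cycle (0 of 20), ATF4 response (0 of 13), fatty acid oxidation (0 of 15), mitochondrial genome (0 of 13), polyamine metabolism (1 of 11, Azin1 at -0.67) and circadian clock genes (1 of 16, Bhlhe40 at 0.45) held no other gene at the threshold. Over all genes, 2.61% had a positive and 2.12% a negative interaction at this threshold. Cox7a1, Azin1 and Bhlhe40 did not stay under 0.05 without the block.

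Selenow, a small selenoprotein abundant in muscle (chr7:15917208-15922371), was at 589, 473, 594, 621 and 758 CPM in MOV control and 882, 634, 663, 887 and 1099.5 CPM in MOV mimic. In sham control it was at 842, 688, 605, 582 and 632 CPM and in sham mimic at 739.6, 532, 617, 518 and 629 CPM. The mimic leg was higher in 5 of 5 MOV mice and 1 of 5 sham mice, without overlap of the differences, and the interaction was 0.58 (SE 0.15, unadjusted p = 0.00141). Selenos, an endoplasmic reticulum selenoprotein, stood at 0.56, and the 15 selenoproteins together had a median of 0.08, with 2 positive and 0 negative at an unadjusted p under 0.05, against 2.61% and 2.12% of all genes. Of 93 small nucleolar RNAs in the tables, 6 had enough counts to be tested, and how well the library kit captures such short RNAs was not tested. Snord91a had between 4 and 16 counts per library in sham control, 4 and 25 in sham mimic and 15 and 30 in MOV control, and 0 counts in all 5 MOV mimic libraries. Set against a floor of 3 counts per library, which covers counting error only, the mean of MOV mimic was at least 6.67-fold lower than that of MOV control. The other small nucleolar RNAs tested ran from -2.46 for Snora34 to 1.08 for Snord72, with 0 of 5 at an unadjusted p under 0.05.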

How the data were processed

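RNA from 20 plantaris muscles was sequenced. The authors trimmed reads with Trim Galore 0.6.10 on top of cutadapt 4.4, aligned them to GRCm38 with HISAT2 2.0.5 and deposited raw counts per gene from featureCounts 1.5.0-p3 in a table for control and a table for mimic. The annotation release, strand setting and treatment of multimapping reads are not given in the sources used here, so that antisense or overlapping genes and near-identical copies are uncertain.

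Genes with enough counts in a group (filterByExpr) were tested with the quasi-likelihood test of edgeR 4.0.16 after TMM normalization, two-sided. The model held 10 mice as blocks, a mimic effect in sham and a mimic effect in MOV, and the interaction was the difference of these effects. P-values were adjusted by Benjamini-Hochberg over all 16166 genes, with a threshold of 0.05. MOV was compared with sham under each virus without the block, and over both viruses on counts summed per mouse. Differences between legs were taken on log2 CPM with a prior count of 2. Scripts were tested on simulated data. DESeq2 1.42.0, limma 3.58.1, other filters and size factors, no block, and leaving out each mouse were tried as alternatives.

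The labels do not say that equal replicate numbers are the same mouse. The study's methods place control virus in the left and mimic in the right leg of each mouse. Deviations from the group means correlated between legs of the same number with r of 0.66, 0.012, 0.14, 0.23 and 0.12 in sham and 0.035, 0.23, 0.054, 0.18 and 0.32 in MOV, across 16166 genes, which are not independent replicates. For control replicates 2, 3 and 4 in sham and 1 and 3 in MOV, a mimic leg of another number correlated more highly. The highest such r were 0.098, 0.26 and 0.28 in sham and 0.15 and 0.10 in MOV. These correlations do not settle the pairing. The p-values measure the spread between these libraries and leg pairs, and library totals of at least 12036360 counts set the counting error.

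Named genes were the 10 with the smallest p in each direction at a mean of at least 5 CPM, genes called by an alternative with 10 calls or fewer, the 7 genes that the study singled out, up to 2 genes of each list with the smallest p, and overload genes with the most enlarged or dampened change. Other list members are given as examples of their role, and some are not reported here. The members and lists were chosen with earlier results of these data known. Sequences and coordinates of genes came from RefSeq (GRCm38.p6), whose promoter table did not list H2-Ab1, Cd74, Zbp1 and C1qa.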

Additional observations from a re-analysis of the deposited data

Results flagged for a closer look

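Leg differences (mimic minus control, log2 CPM) in which 1 of 5 mice stood apart from the other mice of its surgery were found for 3 named genes and 6 gene lists. Chance marks about 1 in 20 groups. H2-Ab1 was at -0.80 in sham mouse 4, below the other sham mice. Nxn was at 0.73 in sham mouse 2 and Lrba at -0.90 in MOV mouse 4. Sham mouse 2 also stood apart in the mean of the tendon markers (-1.10) and of the muscle fibre markers (-0.35). MOV mouse 2 was lowest for fatty acid oxidation (-0.31) and for the nuclear respiratory chain (-0.30). MOV mouse 4 was lowest for ribosome biogenesis (-0.36) and for heat shock and chaperones (-0.39). Rsrc1 was lower in the mimic leg in every MOV mouse and higher in every sham mouse, with an interaction of -0.78 that did not pass the adjusted threshold in edgeR.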

How the results depend on the processing

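The count of genes at an adjusted p under 0.05 was 0 in edgeR with the replicate block and became 5 in DESeq2 with the block and 1 in DESeq2 without it, 155 in edgeR without a filter on low counts and 81 with at least 10 counts in total. In these last fits the prior degrees of freedom went from 6.84 to infinite and to 113. With bias-adjusted deviances, an alternative chosen after seeing the data, it was 0 under all 3 filters. Genes with a positive interaction at an unadjusted p under 0.05, 422 in the report, numbered 210 without the replicate block, 696 without a filter, 650 with at least 10 counts, 700 and 677 with bias-adjusted deviances under those filters, and 297 to 648 when 1 mouse was left out. Negative ones, 343 in the report, numbered 216 without the block, 634 without a filter, 560 with at least 10 counts and 177 to 595 when 1 mouse was left out. Sham replicate 2 gave the lowest and MOV replicate 3 the highest count when left out. The median of the 6 small nucleolar RNAs, -0.60 in the report, was -0.054 without the block, -0.036 in DESeq2 without the block, -0.12 with voom, -0.039, -0.014 and -0.017 with bias-adjusted deviances under the 3 filters, and between -1.10 without MOV replicate 2 and -0.21 without MOV replicate 4. The overload-higher list went from -1.74 (1 gene) to 0.092 with the longer list. S100a8, a neutrophil gene with an interaction of -0.31, was at 0.0078 in DESeq2 without the block, at 0.40 with voom and between -1.39 and 0.80 without 1 mouse. Where no construction of the alternative shows the cause, the cause was not tested. The other 943 values of 46 summary results and 2133 values of 105 named genes kept their direction and their side of the threshold or stayed within the spread between mice, and 65 values of named genes passed an adjusted threshold that the reported fit did not reach. Depth limits genes of few counts such as Snord91a and Ctsw.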
